A study of Mus musculus with 16 samples.

Results

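The splicing factors and small nuclear ribonucleoprotein (snRNP) proteins of the mouse oocyte are described here through 50 of the 25965 gene entries in the deposited RNA-seq table. A gene was taken by its symbol alone: Srsf, Sf3a, Sf3b or Prpf followed by a number, Snrpa to Snrpg other than Snrpn, or Lsm1 to Lsm8. The symbols gave 11 SR proteins, 7 proteins of the Sm ring, 7 of the LSm ring, 4 proteins particular to the U1 or U2 particle, 8 subunits of SF3A and SF3B, 6 Prpf proteins of the U4/U6.U5 tri-snRNP and 7 other Prpf proteins. No entry carried the symbols Lsm8, Sf3b6 or Srsf8.

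Introns are removed from pre-mRNA by the spliceosome, which is built on each transcript from snRNPs. Each snRNP holds a small nuclear RNA and a ring of proteins, the Sm ring on the U1, U2, U4 and U5 RNAs and the LSm ring on the U6 RNA. SR proteins bind exons through RNA recognition motifs and recruit the snRNPs to nearby splice sites, and SF3A and SF3B hold the U2 snRNP at the branch site. The tri-snRNP brings in the catalytic core around Prpf8. A growing oocyte transcribes actively and stores RNA that is used after transcription stops in the fully grown oocyte, and loss of Srsf3 is known to disturb the oocyte transcriptome and its maturation.

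Wild-type oocytes of C57BL/6 mice (C57BL/6Babr in the study's methods) were sorted by diameter and pooled to follow transcription and DNA methylation during growth. RNA-seq had 2 libraries (A and B) for each of 4 classes, and 1 library of germinal vesicle (GV) oocytes from day 20. The classes were 10–30 µm, from mice of postnatal days 5 to 7 by the study's methods, 40–45 µm from days 7 to 12, 50–55 µm from days 9 to 14, and 60–65 µm from days 13 to 16. The study's sequencing statistics give slightly other ages, days 12 to 18 for 60–65 µm. DNA methylation was measured by reduced representation bisulphite sequencing (RRBS), 2 libraries for each class but the smallest, and by post-bisulphite adapter tagging (PBAT), 1 library at 60–65 µm. Size and age of the mice rose together and cannot be told apart, and the sources do not say whether A and B came from separate animals, so the p-values measure only the spread between these libraries.

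Expression was deposited as RPKM, reads per kilobase of exon scaled to the size of the library, so each value is a share of its library and not an amount per oocyte. In pooled oocytes, less RNA per cell and fewer cells carrying an RNA cannot be told apart. Whole reads could be recovered from the RPKM values for 92.9% of gene entries. They summed to 23763967 to 48793901 per library of growing oocytes and 55457731 for GV. These sums cover the recovered entries only and are not the library sizes used for RPKM. Each of the 49 splicing genes tested had at least 225 recovered reads in every library of growing oocytes. All 10 oocyte markers were above 0.5 RPKM in each library, with a summed RPKM between 2274 and 3326. The summed RPKM of 10 granulosa cell markers was 12.6 and 14.3 at 10–30 µm and 21.5 and 19.6 at 60–65 µm, with 2 to 4 of them above 0.5 RPKM. Serpine2 made most of it, with 10.6 and 11.8, then 13.8 and 12.4 RPKM, while Foxl2 had 0.064 and 0.042, then 0.064 and 0.037. The sum of 8 stroma and theca markers went from 3.998 and 2.83, with 3 of them above 0.5 RPKM, to 1.1 and 0.995, with 0 above it. That of 5 blood and endothelium markers, of which 1 passed 0.5 RPKM, went from 0.807 and 0.741 to 5.08 and 4.58. The 1 that passed was Pecam1, with 0.567 and 0.531, then 4.70 and 4.19 RPKM. Below 0.5 RPKM, Cdh5 and Ptprc were lower at 60–65 than at 10–30 µm, and Hba-a1 and Cd68 were higher. The part of these other cell types in the values below was not tested.

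Between the smallest and the largest oocytes the splicing genes fell more often than they rose. Of the 49 tested, 25 were lower at 60–65 µm than at 10–30 µm, 2 were higher and 22 did not pass an adjusted p of 0.05 (limma on log2 RPKM, adjusted over 10518 genes). Among all genes tested, 31.5% were lower and 31.8% were higher. The median log2 change was -0.35 for the splicing genes and 0.00 for all genes, and the summed RPKM of the 50 genes was 529.1 and 469.9 at 10–30 µm, 423.1 and 417.1 at 40–45 µm, 377.2 and 363.9 at 50–55 µm, 365.7 and 361.1 at 60–65 µm and 337.5 in GV. The falls lay mainly in the SR proteins, the Sm ring and the LSm ring, with 19 of 24 genes lower and none higher, whereas 6 of the other 25 genes were lower and 2 were higher. In unscaled RPKM, both libraries of 60–65 µm lay below both of 10–30 µm for 33 of the 49 genes (67.3%), against 41.9% of all genes tested. They lay above both for 3 (6.12%), against 40.1%. Of the 27 calls, 16 held under each of 19 other settings, among them the leaving out of each library. These were Srsf1, Srsf3, Srsf5, Srsf6, Srsf7, Srsf9, Srsf10, Snrpb, Snrpe, Snrpg, Lsm1, Lsm4, Lsm5, Lsm7, Sf3a3 and Prpf39. The other 11 calls, both rises among them, were lost under at least 1 setting. Without library A of 60–65 µm 17 genes were lower and 0 higher, beside 23% and 23.9% of all genes. Without library B of 10–30 µm 29 were lower and 4 higher, beside 31.7% and 32% of all genes. Srsf12, with fewer than 0.01 RPKM in each library, was not tested.

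**Figure D1:**
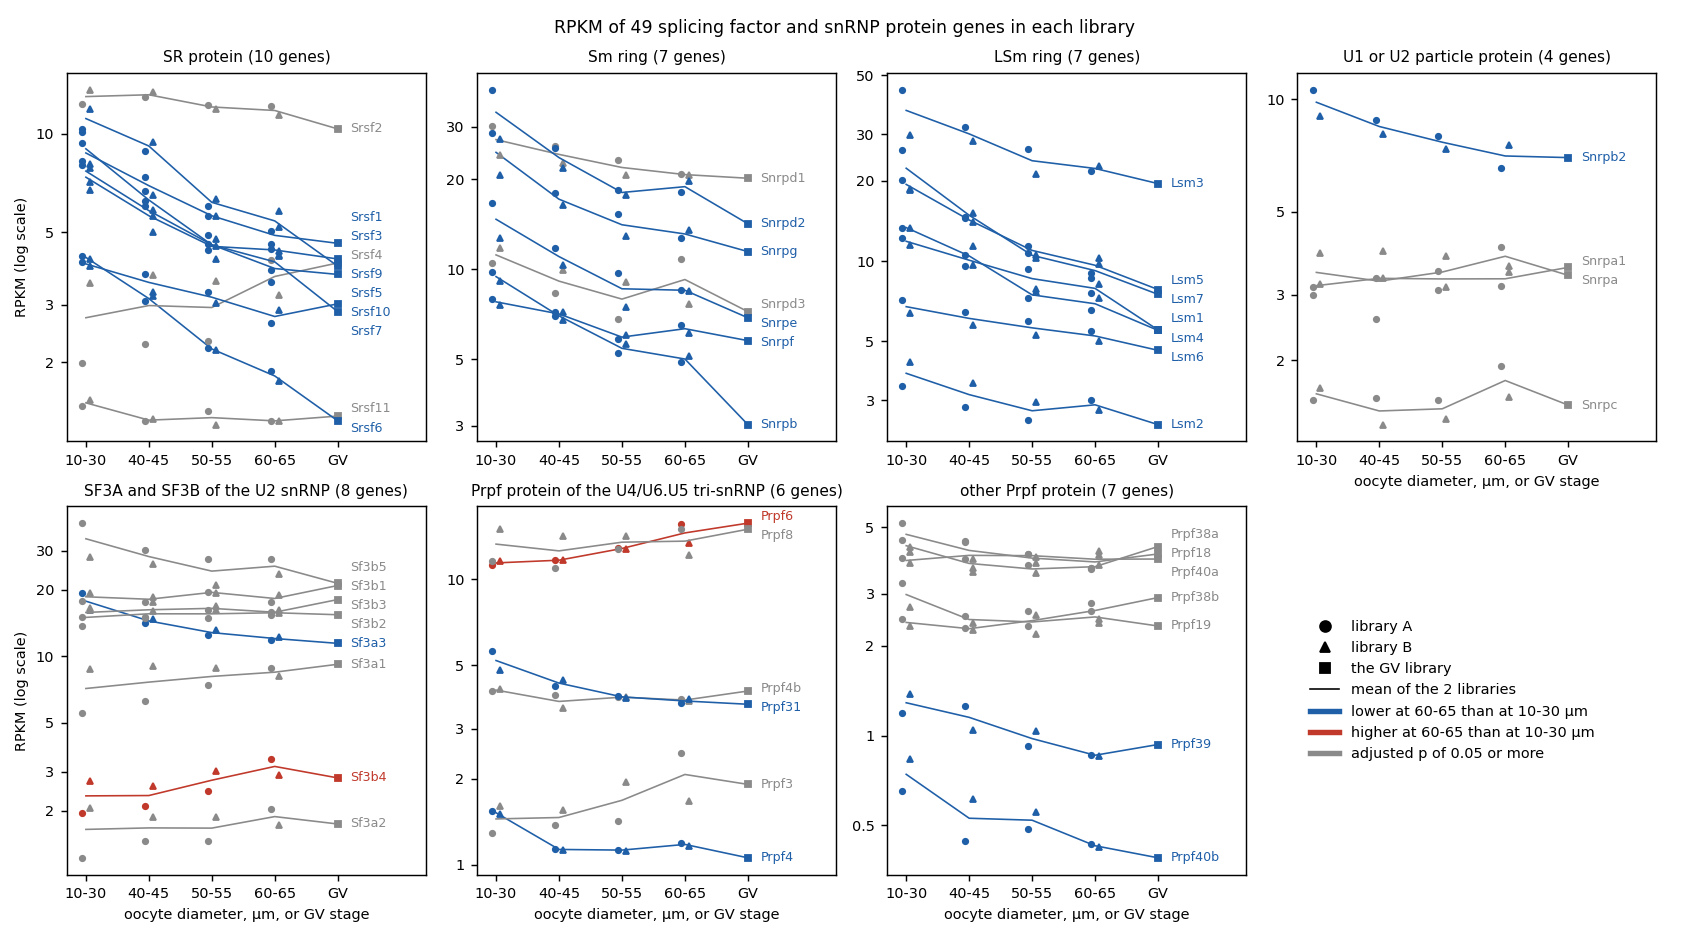
RPKM (log scale) of the 49 splicing factor and snRNP protein genes tested, in 7 panels by role, against oocyte diameter in µm and the GV stage. Circles are library A, triangles library B, squares the GV library and lines the mean of the 2 libraries, in blue for the 25 genes lower at 60–65 than at 10–30 µm, red for the 2 higher genes and grey for the other 22, and most lines in the SR, Sm and LSm panels are blue while most in the SF3A and SF3B panel are grey.

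The sequence before the gene start is shown for the 4 largest falls and for the gene of smallest change, Sf3b3, because these starts are where the methylation below was read and because the 4 genes fell together. Of the 50 genes, 42 had an entry in RefSeq promoters of GRCm38.p6, and genes were eligible where the RefSeq start lay within 100 bp of the start in the table. Each line gives the 250 bases before the start, 5′ to 3′ on the strand of the gene, with CG dinucleotides, the sites of DNA methylation, in capitals. Lsm7 lies at chr10:80855210-80855459 (minus strand), Srsf6 at chr2:162931258-162931507 (plus), Srsf7 at chr17:80207306-80207555 (minus), Srsf9 at chr5:115326927-115327176 (plus) and Sf3b3 at chr8:110846804-110847053 (minus).
Lsm7: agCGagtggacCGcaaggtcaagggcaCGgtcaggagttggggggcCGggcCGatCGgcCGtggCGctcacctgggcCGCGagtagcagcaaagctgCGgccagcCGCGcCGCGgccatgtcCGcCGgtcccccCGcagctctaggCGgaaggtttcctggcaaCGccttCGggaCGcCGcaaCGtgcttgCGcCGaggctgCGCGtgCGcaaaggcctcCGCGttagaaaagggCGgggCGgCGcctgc
Srsf6: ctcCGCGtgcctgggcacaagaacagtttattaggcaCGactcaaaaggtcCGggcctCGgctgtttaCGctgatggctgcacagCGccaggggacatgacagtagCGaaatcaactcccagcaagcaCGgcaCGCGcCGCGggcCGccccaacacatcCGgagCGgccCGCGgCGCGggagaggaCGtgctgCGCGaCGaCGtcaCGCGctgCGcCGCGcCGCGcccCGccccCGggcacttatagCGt
Srsf7: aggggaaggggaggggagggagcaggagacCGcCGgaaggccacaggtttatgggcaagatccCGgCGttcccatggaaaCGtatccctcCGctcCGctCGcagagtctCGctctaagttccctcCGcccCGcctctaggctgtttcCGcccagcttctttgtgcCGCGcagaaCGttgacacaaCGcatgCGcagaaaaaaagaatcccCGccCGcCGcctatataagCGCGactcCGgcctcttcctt
Srsf9: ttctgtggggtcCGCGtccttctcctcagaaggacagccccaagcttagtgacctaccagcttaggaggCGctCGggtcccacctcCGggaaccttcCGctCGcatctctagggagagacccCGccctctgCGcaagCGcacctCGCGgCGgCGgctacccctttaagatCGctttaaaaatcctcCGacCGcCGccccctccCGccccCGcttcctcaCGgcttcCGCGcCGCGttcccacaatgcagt
Sf3b3: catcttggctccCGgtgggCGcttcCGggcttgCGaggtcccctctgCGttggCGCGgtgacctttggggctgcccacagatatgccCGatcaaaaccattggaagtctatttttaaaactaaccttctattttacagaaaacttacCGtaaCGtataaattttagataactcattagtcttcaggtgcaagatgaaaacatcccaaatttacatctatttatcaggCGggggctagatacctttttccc
The 4 genes that fell had 23 to 35 CG dinucleotides in these 250 bases and Sf3b3 had 11, against a median of 19 over the 42 splicing genes and 6 over all 32851 promoters. The 42 are 1 start for each gene, the nearest to its start in the table. The 32851 are every RefSeq start, without a filter for expression, here and in the motif shares below. The 6 RRBS libraries, of 3 size classes, together held 3939 calls in the Srsf6 window, of which 7 were methylated, and 3751 in that of Srsf7, also with 7 methylated. In the Lsm7 window 5 of 1318 calls were methylated, and all 5 came from library A of 60–65 µm, with 239 calls. The Srsf9 window held 117 calls, all from the A libraries, with 0 methylated, which allows a share of up to 2.56%. In the Sf3b3 window each RRBS library read 1 cytosine, and 2 of 153 calls were methylated, both in library A of 40–45 µm. The PBAT library of 60–65 µm read partly other cytosines, 13 of them in the Sf3b3 window, so its values do not compare site by site with RRBS. Its mean over cytosines was 10.8% for Lsm7 (27 of 259 calls), 14.4% for Sf3b3 (12 of 92) and 3.25% for Srsf6 (7 of 223). The Srsf7 window held 40 PBAT calls with 0 methylated, which allows a share of up to 7.5%, and that of Srsf9 held only 5 calls. Limits from a count of 0 cover counting error only, since reads copied by PCR are not separate molecules. Across these windows, the letters CCGGAAG, known from sites of ETS factors, were found on either strand in 15 of 42 splicing gene promoters (35.7%) and in 6.91% of all promoters. The motif of NRF1 was found in 9 (21.4%) and 3.74%, and GGGCGG, the GC box, in 27 (64.3%) and 32.7%. CCAAT was found in 16 (38.1%) and 33.8%, and TATAAA in 4 (9.52%) and 12.4%. The first 3 of these motifs hold CG and the splicing gene promoters hold more CG than most, and the part of that in the shares was not tested. Counted back from the base before the start, Lsm7 held the NRF1 motif as GCGCGTGCGC at positions -49 to -40 and Srsf9 as GCGCAAGCGC at -120 to -111, Srsf7 held CCGGAAG at -218 to -212 and Sf3b3 its reverse complement at -229 to -223, and Srsf6 held neither motif.

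SR proteins held 4 of the 6 largest falls. Of the 10 tested, 7 were lower and 0 higher, with a median log2 change of -0.77. Srsf6, a regulator of exon inclusion (chr2:162931528-162937121, GRCm38), had an RPKM of 4.22 and 4.14 at 10–30 µm (libraries A and B), 3.07 and 3.19 at 40–45 µm, 2.21 and 2.18 at 50–55 µm, 1.88 and 1.75 at 60–65 µm and 1.32 in GV. The libraries of each class lay below both of the class before and the classes did not overlap, and the fall from 10–30 to 60–65 µm was 2.23-fold (log2 change -1.15 ± 0.095 SE, adjusted p = 2.5e-05, limma). Srsf7, which also takes part in mRNA export, had 10.1 and 7.85, then 6.69 and 5.84, then 4.601 and 4.54, then 3.84 and 4.27 RPKM, and 2.85 in GV. Library A stood above B at 10–30 µm, yet the classes did not overlap, and Srsf7 fell 2.16-fold (-1.11 ± 0.16, adjusted p = 0.00043). Srsf9 had 10.3 and 11.9, then 8.88 and 9.45, then 6.01 and 6.32, then 5.03 and 5.79 RPKM, and 3.93 in GV. It fell 2.03-fold without overlap between classes (-1.02 ± 0.10, adjusted p = 7.2e-05). Srsf5 had 8.23 and 7.13, then 6.02 and 5.61, then 4.39 and 4.75, then 3.51 and 4.22 RPKM, and 3.71 in GV, between the libraries of 60–65 µm. Its fall was 1.96-fold (-0.97 ± 0.14, adjusted p = 0.000448).

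Srsf1, the founding member of the family, was 1.76-fold lower (adjusted p = 0.000997), Srsf3 1.64-fold lower (adjusted p = 0.00497) and Srsf10 1.43-fold lower (adjusted p = 0.00528, limma). Not all SR proteins followed. Srsf2, a marker of nuclear speckles and the most abundant SR mRNA here, had 12.4 and 13.6 RPKM at 10–30 µm, 12.9 and 13.4 at 40–45 µm, 12.3 and 11.9 at 50–55 µm, 12.1 and 11.4 at 60–65 µm and 10.3 in GV. Its log2 change of -0.13 had a 95% interval of -0.33 to 0.07 (adjusted p = 0.212), which excludes a fall of the size of Srsf1. Srsf11, the least abundant of the 10 in growing oocytes, stayed between 1.29 and 1.53 RPKM in all 8 libraries of growing oocytes and at 1.37 in GV. Srsf4 had 1.99 and 3.48 RPKM at 10–30 µm and 4.09 and 3.22 at 60–65 µm, so its libraries differed within a class by as much as between classes (log2 change 0.46, adjusted p = 0.203).

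The 7 proteins of the Sm ring, which are loaded together onto snRNAs, had 5 genes lower and 0 higher, with a median log2 change of -0.76. Snrpb, which encodes the SmB and SmB′ proteins (chr2:130171414-130179403), had 9.77 and 9.12 RPKM at 10–30 µm, 7.22 and 6.75 at 40–45 µm, 5.26 and 5.61 at 50–55 µm, 4.89 and 5.13 at 60–65 µm and 3.02 in GV. It was the least abundant of the ring on average, and fell 1.86-fold without overlap (-0.90 ± 0.11, adjusted p = 0.000181, limma). Snrpd2 (SmD2) had the highest mean over the 8 libraries of growing oocytes (23.51, against 23.49 for Snrpd1). By class mean Snrpd1 was higher from 40–45 µm on, and it was higher in GV (20.1 RPKM). Snrpd2 had 39.8 and 27.2, then 25.5 and 21.8, then 18.4 and 17.7, then 18.1 and 19.7 RPKM, and 14.2 in GV. Library A at 10–30 µm stood well above B for Snrpd2, and its fall was 1.73-fold (-0.79 ± 0.20, adjusted p = 0.00763). Snrpg fell 1.84-fold (adjusted p = 0.00283), Snrpe 1.70-fold (adjusted p = 0.00636) and Snrpf 1.221-fold (adjusted p = 0.0281). Snrpd1 and Snrpd3 did not pass, with log2 changes of -0.37 (adjusted p = 0.0572) and -0.28 (adjusted p = 0.203).

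All 7 genes of the LSm ring were lower at 60–65 µm, with a median log2 change of -0.69. Lsm2 to Lsm7 serve both the nuclear ring on U6 and a cytoplasmic ring that acts in mRNA decay, while Lsm1 belongs to the cytoplasmic ring alone. Lsm7 (chr10:80852825-80855209) had the largest fall of the 49 genes, with 26.1 and 18.6 RPKM at 10–30 µm, 14.6 and 15.1 at 40–45 µm, 10.7 and 10.3 at 50–55 µm, 8.64 and 9.78 at 60–65 µm and 7.50 in GV. Every class lay below the one before it, and the change was 2.37-fold (-1.24 ± 0.17, adjusted p = 0.000371, limma). Lsm5 had 20.3 and 18.6, then 14.5 and 14.02, then 11.4 and 10.6, then 9.02 and 10.3 RPKM, and 7.82 in GV, and fell 1.996-fold (adjusted p = 0.00015). Lsm4 had 13.4 in both libraries, then 9.54 and 11.4, then 7.26 and 7.67, then 6.56 and 7.26 RPKM, and 5.49 in GV, and fell 1.91-fold (adjusted p = 0.000127). For Lsm4 the libraries of 50–55 and 60–65 µm met at 7.26 RPKM, and the earlier classes did not overlap. Lsm3 had the highest mean of the 50 genes over the 8 libraries of growing oocytes (28.3 RPKM, against 28.0 for Sf3b5). By class mean Sf3b5 was higher at 50–55 and 60–65 µm, and it was higher in GV. Lsm3 had 44.0 and 29.7, then 32.0 and 28.2, then 26.5 and 21.2, then 21.9 and 22.7 RPKM, and 19.6 in GV (1.61-fold lower, adjusted p = 0.0191). Lsm2, the least abundant of the ring, had 3.41 and 4.17, then 2.82 and 3.47, then 2.52 and 2.96, then 3.02 and 2.75 RPKM, and 2.43 in GV (1.29-fold lower, adjusted p = 0.033). Lsm1 fell 1.49-fold (adjusted p = 0.00383) and Lsm6 1.28-fold (adjusted p = 0.0414).

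The subunits that hold the U2 snRNP at the branch site mostly did not pass the test. Of the 8 genes of SF3A and SF3B, 1 was lower and 1 higher, with a median log2 change of 0.05. Sf3b1, the scaffold of SF3B that contacts the branch site, lay between 17.6 and 19.5 RPKM in all 8 libraries of growing oocytes and at 20.9 in GV. Its log2 change of -0.02 from 10–30 to 60–65 µm had a 95% interval of -0.22 to 0.18, and those of Sf3b3 and Sf3b2 were 0.01 and 0.08. Sf3a3 fell 1.46-fold (adjusted p = 0.00455, limma). Sf3b4, which binds pre-mRNA near the branch site, had 1.95 and 2.71 RPKM at 10–30 µm, 2.103 and 2.58 at 40–45 µm, 2.47 and 3.03 at 50–55 µm, 3.44 and 2.90 at 60–65 µm and 2.81 in GV. Both libraries of 60–65 µm exceeded both of 10–30 µm, and the rise was 1.36-fold (0.45 ± 0.16, adjusted p = 0.0392). Sf3b5, the smallest subunit and the most abundant mRNA of the group, had 40.0 and 28.0, then 30.4 and 26.2, then 27.6 and 21.01, then 27.7 and 23.5 RPKM, and 21.4 in GV, and did not pass (-0.39, adjusted p = 0.149). Sf3a2, the least abundant, had 1.223 and 2.07, then 1.46 and 1.88, then 1.46 and 1.87, then 2.03 and 1.73 RPKM, and 1.74 in GV, with classes that overlapped throughout.

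Of the 4 proteins particular to U1 or U2, only Snrpb2 (U2B″), the most abundant, was called. It had 10.6 and 9.04, then 8.81 and 8.09, then 7.99 and 7.35, then 6.55 and 7.55 RPKM, and 6.98 in GV, and fell 1.38-fold (adjusted p = 0.0173, limma). Snrpa1, its partner on the U2 RNA, stayed between 3.13 and 3.47 RPKM in the 8 libraries of growing oocytes and had 3.55 in GV. Snrpc, the U1 protein that contacts the 5′ splice site, was the least abundant at 1.56 and 1.69, then 1.58 and 1.35, then 1.57 and 1.398, then 1.93 and 1.60 RPKM, and 1.52 in GV.

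The Prpf proteins were mixed. In the tri-snRNP, Prpf31 fell 1.37-fold (adjusted p = 0.00937) and Prpf6 rose 1.27-fold (0.35 ± 0.10, adjusted p = 0.0148, limma). Prpf6, which bridges U5 to U4/U6, had 11.2 and 11.6 RPKM at 10–30 µm, 11.7 and 11.6 at 40–45 µm, 12.8 in both libraries at 50–55 µm, 15.6 and 13.4 at 60–65 µm and 15.7 in GV. Its model in the table (chr2:181591868-181655660) shares ground with Znf512b and Samd10 on the other strand and begins 9451 bp before the RefSeq start. Prpf4, with the lowest mean of the 6 over the 8 libraries of growing oocytes, had 1.54 and 1.503, then 1.14 and 1.13, then 1.13 and 1.12, then 1.196 and 1.16 RPKM, and 1.06 in GV. The libraries of 10–30 µm thus stood above all others (1.26-fold lower from 10–30 to 60–65 µm, adjusted p = 0.0184). Prpf8, which forms the catalytic core, had the highest mean of the 6 over the 8 libraries of growing oocytes (13.2, against 12.6 for Prpf6). Prpf6 was higher at 60–65 µm (mean 14.5, against 13.6) and in GV. Prpf8 had 11.5 and 14.995, then 10.96 and 14.2, then 12.8 and 14.1, then 15.01 and 12.2 RPKM, and 14.96 in GV, with no order among the classes.

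Among the other Prpf proteins, Prpf40b and Prpf39, both counterparts of yeast U1 proteins, were lower and the other 5 were not called. Prpf40b, the least abundant gene tested, had 0.650 and 0.833, then 0.442 and 0.614, then 0.488 and 0.553, then 0.432 and 0.422 RPKM, and 0.389 in GV, and fell 1.58-fold (adjusted p = 0.00533, limma). Both libraries of 60–65 µm lay under 0.5 RPKM, the level that 2 libraries had to reach for a gene to be tested, and with that level set at 1 RPKM Prpf40b was not tested. Prpf39 fell 1.44-fold (adjusted p = 0.00785). Prpf18, which acts in the second step of splicing, had the highest mean of these over the 8 libraries of growing oocytes. It had 5.17 and 4.31, then 4.45 and 3.92, then 4.08 and 3.81, then 3.62 and 4.04 RPKM, and 4.07 in GV (adjusted p = 0.107).

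**Figure D2:**
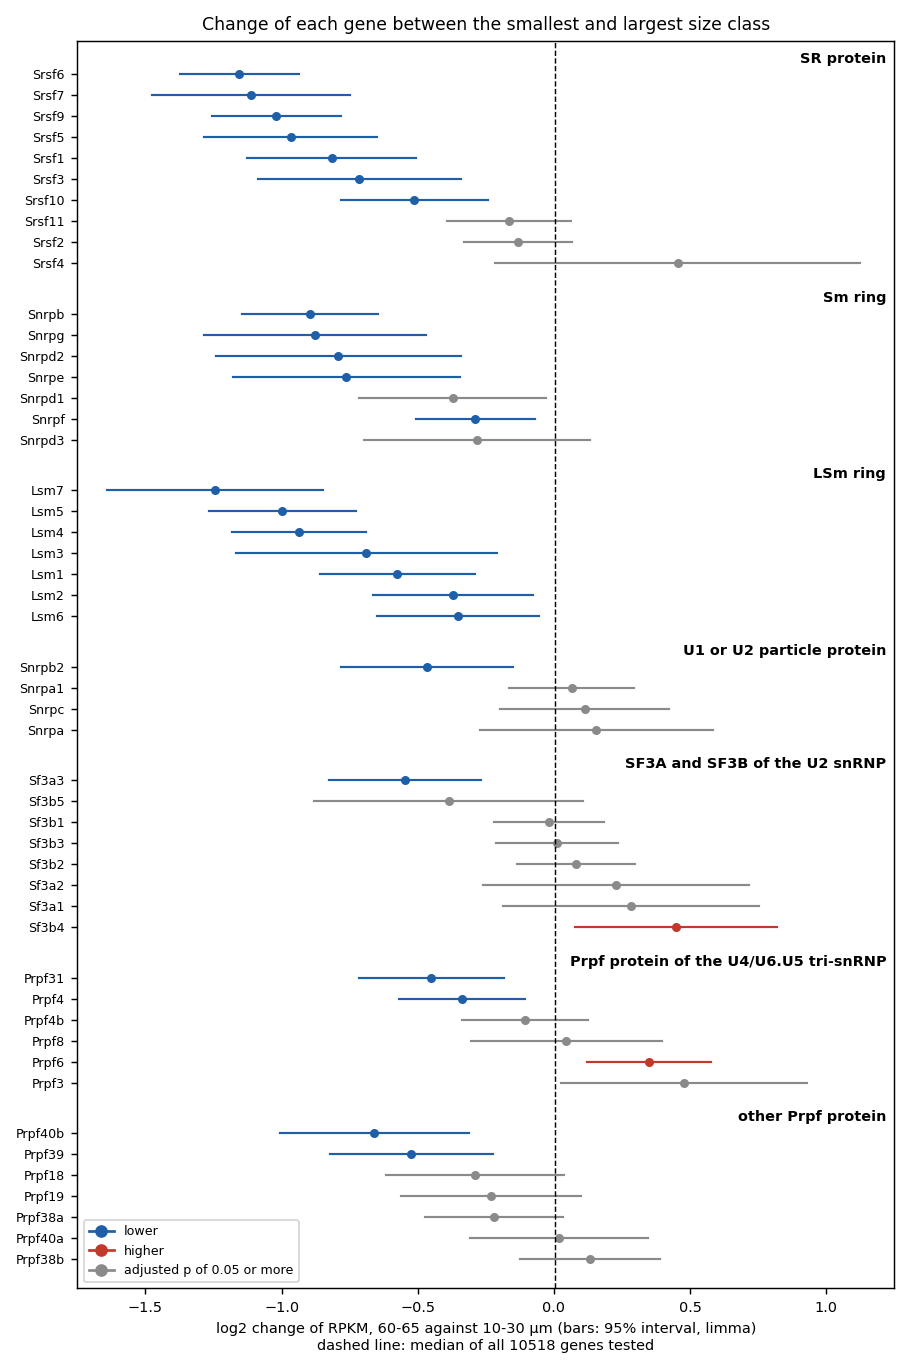
Log2 change of RPKM from 10–30 to 60–65 µm for each of the 49 genes, grouped by role, with points for the limma estimate, bars for its 95% interval and a dashed line at the median of all 10518 genes tested. All 7 LSm genes and 5 of 7 Sm genes lie in blue left of the line, Sf3b1 and Sf3b3 lie on it, and Prpf6 and Sf3b4, in red, lie right of it.

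Libraries A and B of a class differed in a way that many genes shared. In 11 of the 49 genes (22.4%), among them Srsf4, Sf3b4, Sf3a1, Sf3a2, Prpf3 and Prpf8, B exceeded A at 10–30, 40–45 and 50–55 µm and A exceeded B at 60–65 µm, and 16% of all genes tested did the same. The Spearman correlation of transcript GC content with the log2 difference of A over B was -0.42, -0.67, -0.44 and 0.33 over the 49 genes from the smallest to the largest class, and -0.29, -0.44, -0.30 and 0.20 over 9068 genes. These genes share libraries, so the values are a description. Of the 11 genes, 2 were lower from 10–30 to 60–65 µm and 1 was higher, and of the other 38, 23 were lower and 1 was higher. Of all genes tested, 31.5% were lower and 31.8% higher, and their shares with and without that pattern were not computed. The part of the libraries' GC difference in the changes was not tested.

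Transcript length moved with the change as well. Of all genes whose longest annotated transcript was under 1000 nt, 62.9% were lower at 60–65 µm, against 41.6% from 1000 to 2000 nt, 29.4% from 2000 to 4000 nt and 22.3% above. Of the splicing genes, 6 of 7, 7 of 13, 9 of 19 and 3 of 10 were lower in the same length classes. By this annotation (GENCODE M21) the 7 splicing genes under 1000 nt encode Sm or LSm proteins, such as Lsm5 with 494 nt, Snrpe with 669 nt and Lsm3 with 743 nt. The model in the table can be shorter, as for Sf3b5, which spans 733 bp there but has an annotated transcript of 3841 nt. Srsf6, with 3527 nt, and Srsf7, with 2403 nt, had log2 changes of -1.15 and -1.11 in a length class where the median of all genes was 0.03. The Spearman correlation of length with the log2 change was 0.31 over the 49 genes and 0.23 over 9068 genes, and the part of length in the falls was not tested.

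**Figure D3:**
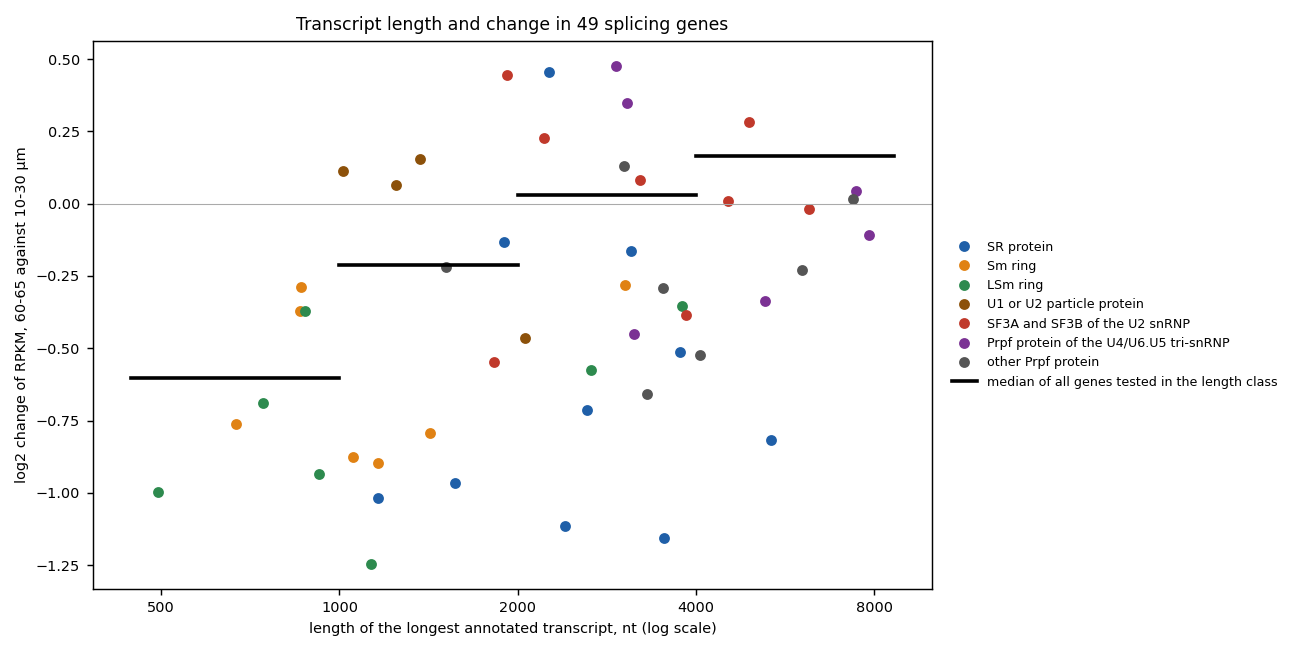
Length in nt of the longest annotated transcript (log scale) against the log2 change of RPKM from 10–30 to 60–65 µm, 1 point for each of the 49 genes, coloured by role. Black lines give the median change of all genes tested in each length class, from -0.60 under 1000 nt to 0.17 from 4000 nt, and the SR proteins Srsf6 and Srsf7 lie far below the line of their class.

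Single steps of growth gave few calls. From 10–30 to 40–45 µm, 3 of the 49 genes were lower and 0 higher, against 9.84% and 13.2% of all genes (limma), with a median log2 change of -0.13. Srsf6 (-0.34, adjusted p = 0.0354), Snrpb (-0.36, adjusted p = 0.0449) and Prpf4 (-0.33, adjusted p = 0.0466) were called. All 3 lay close to the threshold. Leaving out library B of 10–30 µm gave 13 lower genes, with 14% of all genes lower in that setting, and leaving out any other library gave 0, with 2.75% to 7.17% of all genes lower. Without scaling of the libraries 9 were lower, and 1521 of all genes were lower and 1088 higher in place of 1035 and 1386. With the letter A or B as a replicate block, 7 were lower, against 14% of all genes. At an unadjusted p under 0.05, 10 splicing genes were lower and 0 higher by limma and by edgeR, against 1834 and 2080 of all 10518 genes by limma.

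From 40–45 to 50–55 µm, 3 genes were lower and 0 higher, against 3.10% and 5.65% of all genes (limma), with a median of -0.16. Srsf9 (-0.59, adjusted p = 0.0178), Srsf6 (-0.52, adjusted p = 0.0194) and Lsm4 (-0.50, adjusted p = 0.0281) were called. Leaving out library A or B of 10–30 µm, which enters through the shared spread, gave 9 and 7 lower genes, with 7.4% and 6.82% of all genes lower, and leaving out B of 40–45 µm or either library of 50–55 µm gave 0, with at most 0.618% of all genes lower. Leaving out library A of 10–30 µm also changed the scaling, and the log2 changes of Srsf9, Srsf6 and Lsm4 became -0.60, -0.53 and -0.51. With the replicate block 5 were lower, against 7.47% of all genes. Unadjusted, 10 were lower and 0 higher by limma and by edgeR, against 1411 and 1592 of all genes by limma. From 50–55 to 60–65 µm no gene of the whole table passed, 0% in either direction by limma and by edgeR, and the median of the splicing genes was -0.07. With the replicate block 78 genes of the table were lower and 152 higher, and with a pseudocount of 1 RPKM 0 were lower and 8 higher, with no splicing gene among them. At an unadjusted p under 0.05, 1 splicing gene was lower and 0 were higher by both tools, against 720 and 709 of all genes by limma.

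Fully grown GV oocytes, with 1 library and no test, differed little from 60–65 µm. None of the 49 genes was past 2-fold in either direction, against 0.257% of all genes lower and 0.418% higher. The largest difference was that of Snrpb, at 3.02 RPKM against 4.89 and 5.13 (log2 difference -0.67), followed by Lsm1, at 5.51 against 7.61 and 8.18 (-0.47), and Srsf7 (-0.45). In unscaled RPKM, 29 of the 49 genes lay below both libraries of 60–65 µm (59.2%, against 46.2% of all genes) and 12 above both (24.5%, against 35%). All 7 LSm genes and all 7 Sm genes were among those below, and Sf3b1 and Sf3b3 were among those above, at 20.9 and 18.1 RPKM. The log2 differences were taken on scaled values. On that scale Snrpd1 (-0.002), Prpf31 (0.0006) and Sf3b2 (0.0086), all counted as below, hardly differed from 60–65 µm.

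Near-identical copies of some of these genes lie elsewhere in the genome. For 14 of the 49, another locus of GRCm38.p6 matched at least 80% of the coding sequence at 95% identity or more, from 1 for Snrpe, Srsf10 or Srsf5 to 4 for Snrpc and Srsf3. Reads were reported at 1 place each, so reads of these genes may have been shared with the copies. Of the 14 genes 10 were lower and 1 was higher, with a median log2 change of -0.61. Of the 35 without such a copy 15 were lower and 1 was higher, with a median of -0.28. Lsm7, with the largest fall, had 2 such copies. Of all genes tested, which were not searched for copies, 31.5% were lower and 31.8% higher. The part of the copies in the falls was not tested. Besides Prpf6, 9 genes share ground with a gene on the other strand, among them Srsf1, Srsf2, Sf3b3, Snrpa and Prpf39. The libraries kept strand, but whether counting used it is not given in the sources used here, so reads of the partners may be included.

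The starts of the splicing genes had little methylation in every class measured. Within 1 kb of the start, over CpG cytosines with at least 5 reads, the median over 43 to 46 of the genes tested was 0.412% and 0.385% in the RRBS libraries A and B of 40–45 µm, 0.646% and 0.307% at 50–55 µm and 0.507% and 0.383% at 60–65 µm. The medians of all genes tested lay between 0.360% and 0.606%. No splicing gene reached 25% in any library, and the highest RRBS value of a tested gene was 4.55%, that of Prpf31 in library A of 50–55 µm. Srsf12, which was not tested for its low RPKM, had 7.95% in library B of 50–55 µm and 1.83% to 4.38% in the other RRBS libraries. Of all genes, 0.119% to 1.04% reached 25%. In the PBAT library the median was 3.20% over 48 genes and the highest value 10.0%, for Snrpd2, and 3.28% of all genes reached 25%.

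Gene bodies, where oocytes lay down methylation along transcribed units, were partly methylated at 60–65 µm. Over whole genes of at least 4 kb, the median of 44 splicing genes was 19.1% in the PBAT library, with quartiles of 14.2% and 42.7%, and the median of 9205 genes was 32.1%. This order depended on the start of the gene. Beyond 2 kb of the start, the median was 52.3% for 39 splicing genes and 50.6% for 8745 genes, and 59% and 51.2% of them reached 50%. Snrpd3 (67.7%), Prpf31 (65.6%) and Sf3a3 (59.7%) had the highest whole-gene values. The lowest were those of the SR genes Srsf1 (2.51% over 114 positions), Srsf10 (3.25% over 170) and Srsf5 (3.59% over 118), and beyond 2 kb Srsf10 had 34.1% over 10 positions and Srsf5 21.7% over 16. Whole-gene methylation, with the start included, and mean RPKM at 60–65 µm had a Spearman correlation of 0.11 over the 44 genes and -0.03 over 9205 genes. They come from the same size class but separate libraries, and no correlation was computed beyond 2 kb of the start. For this size class the study reported a positive relation, with its own gene set and expression values, that levelled off in highly methylated gene bodies.

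**Figure D4:**
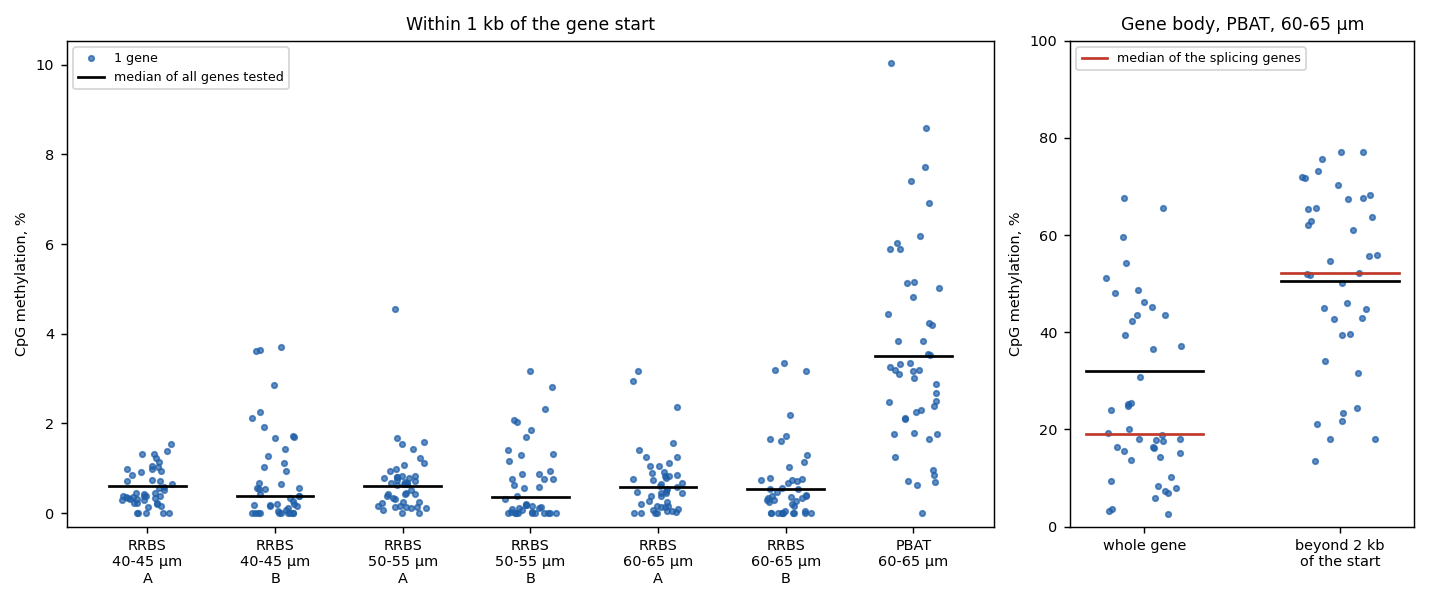
CpG methylation in percent of the splicing genes tested, 1 point for each gene, within 1 kb of the gene start in the 6 RRBS libraries and the PBAT library (left) and over the gene body in the PBAT library of 60–65 µm (right). Black lines are medians of all genes tested and red lines medians of the splicing genes, and the red line lies below the black one over whole genes, 19.1% against 32.1%, and beside it beyond 2 kb of the start, 52.3% against 50.6%.

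Other proteins of the pathway were counted in lists written from general knowledge of splicing. Of 52 other spliceosome proteins tested, 23 were lower and 9 higher at 60–65 than at 10–30 µm, where 31.5% of all genes were lower and 31.8% higher, with a median log2 change of -0.24, and Cdc5l, a core component of the Prpf19 complex, had the largest fall (-1.30 ± 0.14, adjusted p = 0.000107, limma). Sart3, which recycles the U4/U6 snRNP, had the largest rise (0.93 ± 0.15, adjusted p = 0.000888). Of 13 genes of the SMN complex and of Sm methylation, which assemble the Sm ring, 7 were lower and 1 higher, beside the same shares of all genes, with a median of -0.40. Prmt5, the methyltransferase that modifies Sm proteins, fell most (-1.55 ± 0.11, adjusted p = 1.49e-05), and Gemin7 was the gene that rose (0.31 ± 0.093, adjusted p = 0.0175).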

How the data were processed

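RNA-seq libraries were made from total RNA with strand marked by dUTP. RPKM values per gene were made and deposited by the authors after trimming (Trim Galore 0.2.8) and alignment to GRCm38 (TopHat2 2.0.9, 1 alignment reported for each read). The methods name Cufflinks and SeqMonk, and which of them made the table is not given in the sources used here. For RRBS (Trim Galore 0.3.5, Bismark 0.14.0) and PBAT (Bismark 0.10.0, duplicates removed), the authors deposited the percent methylation and the counts of methylated and unmethylated calls at each CpG cytosine. The whole table was analysed, and genes, lists and roles were chosen with earlier results of these data known.

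RPKM values of the 8 libraries of growing oocytes were scaled by TMM factors (edgeR 4.0.16), and genes with at least 0.5 RPKM in 2 libraries were kept. Log2(RPKM + 0.1) was fitted in 1 model by limma 3.58.1 with a variance trend (R 4.3.3), p-values were adjusted by Benjamini-Hochberg over 10518 genes, and the threshold was 0.05. Fold changes are on that scale, which understates changes of low genes. GV was compared without a test at 2-fold. Whole reads within 0.03 of an integer were recovered from the RPKM steps for 92.9% of genes. On these reads the quasi-likelihood test of edgeR, added after the data were seen, called 3325 genes lower and 3305 higher from 10–30 to 60–65 µm. The procedure was tested on simulated data.

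Methylation was the mean percent over cytosines with at least 5 reads, for gene starts with at least 5 such positions and gene bodies with at least 10, without a test. Copies were searched with minimap2 2.31-r1302 in GRCm38.p6, and promoters were from RefSeq of that build. Every library is given for up to 8 genes with the largest called fall and rise, the 2 with the largest call each way in each step, the most and least abundant gene of each role and genes past 2-fold in GV. Abundance was ranked by mean RPKM over the 8 libraries of growing oocytes. Settings varied were the pseudocount, filter, scaling, variance trend, libraries fitted, replicate letter, each library left out, and read, position and distance limits for methylation.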

Additional observations from a re-analysis of the deposited data

How the results depend on the processing

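No call among the splicing genes reversed in any setting, and among values of single genes 552 kept their direction and side of the threshold and 74 lost the call. From 10–30 to 40–45 µm, the 3 lower genes became 0 without the expression filter (5.78% of all genes lower), 9 without scaling (14.5%), 0 with only the 4 libraries compared (3.96%), and 0 to 13 with a library left out. From 40–45 to 50–55 µm, the 3 lower genes became 0 to 9 with a library left out. From 10–30 to 60–65 µm, the 2 higher genes became 1 without the filter (23.7% of all genes higher), 1 without scaling (30.7%), 1 with upper quartile scaling (28.8%), and 0 to 4 with a library left out. The cause was not tested.

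Deviations of A from B over 10518 genes correlated at 0.60, 0.59 and 0.67 among the 3 smaller classes, whose letters thus moved together, but at -0.23, -0.03 and 0.11 with 60–65 µm, so the letters did not pair all 4 classes. With the letter as a replicate block, 7 genes were lower in the first step, 5 in the second and all 27 calls from 10–30 to 60–65 µm were kept. With the block and the letters of 60–65 µm crossed, chosen after the data were seen, these were 13 and 10 lower genes, beside 16.1% and 10.1% of all genes, and 5 higher from 10–30 to 60–65 µm, beside 36.2%. From 50–55 to 60–65 µm the crossed block called 52 genes of the table lower and 59 higher.

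The median gene body methylation of 19.1% became 28.0% with at least 1 read a cytosine, 20.9% with 10 reads, 18.5% with 30 positions and 52.3% beyond 2 kb of the start. The median at gene starts in 40–45 µm oocytes, 0.398%, became 0.474% with 1 read, 0.421% with 10 reads and 0.340% within 500 bp. With 2 libraries in a class small changes can be missed, so a gene that failed the test was not shown to be unchanged.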

Other observations

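Other proteins that act on pre-mRNA were counted in lists from general knowledge, chosen with earlier results of these data known. Of 23 hnRNP proteins tested, which coat nascent RNA and often oppose SR proteins, 10 were lower and 2 higher at 60–65 than at 10–30 µm (limma), where 31.5% of all genes were lower and 31.8% higher, with a median log2 change of -0.16 against 0.00 for all genes. Ptbp2, a repressor of exons best known from neurons, had 34.8 and 40.6 RPKM at 10–30 µm, 31.8 and 32.0 at 40–45 µm, 20.7 and 23.0 at 50–55 µm, 14.9 and 17.3 at 60–65 µm and 14.5 in GV. Its largest difference lay between 40–45 and 50–55 µm, and over the whole range the log2 change was -1.22 (adjusted p = 4.47e-05). Hnrnpul2 had the largest rise, from 4.41 and 6.38 to 11.9 and 9.30 RPKM (0.98, adjusted p = 0.00134).

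Of 8 kinases and import factors of SR proteins tested, 3 were lower and 1 higher, with a median of -0.11, a share of lower genes near the 31.5% of all genes. Clk4, which phosphorylates SR proteins in the nucleus, fell from 1.16 and 0.828 to 0.576 and 0.545 RPKM (-0.71, adjusted p = 0.0083, limma), and Dyrk1a, another kinase of splicing factors, rose from 5.17 and 6.29 to 11.2 and 8.83 RPKM (0.80, adjusted p = 0.000874). Of 6 proteins of the minor (U12) spliceosome, which removes a rare class of introns, 2 were lower and 1 higher, again a share of lower genes near that of all genes. Snrnp25 fell from 5.57 and 4.38 to 3.24 and 2.76 RPKM (-0.70, adjusted p = 0.00345). Pdcd7, of the same particle, rose from 53.9 and 47.4 to 89.7 and 72.7 RPKM (0.68, adjusted p = 0.0136), and library A was above library B for it in every class.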
